A study of Mus musculus with 90 samples.

Results

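The H3K9me3 landscape of mouse embryonic stem cells (ESCs) was compared genome-wide between DKO0 and TKOL cells, using the 6 H3K9me3 peak lists of these lines among the 24 peak lists of the series. The members were chosen by their labels alone and come from 4 of the 90 samples, with 2 replicates per line and 1 list per line called on the pooled replicates. TKOL cells are a clonal J1 line without catalytically active Dnmt3a and Dnmt3b in which Dnmt1 is also depleted by an shRNA that Cre can excise. DKO0 cells are TKOL cells after transient Cre expression and a sort for cells that lost the shRNA reporter, so Dnmt1 was restored while Dnmt3a and Dnmt3b stayed inactive. Both lines therefore share the Dnmt3a and Dnmt3b deficiency, and the comparison asks whether H3K9me3 differed once Dnmt1 was present again. The sample labels do not give the passage of the DKO0 cells, although the study's names for these lists carry p5, and they do not say whether replicates were separate cultures, so the spread between replicates may be technical. Both lines were grown in serum and LIF on mouse embryonic fibroblast feeders. A peak list carries no gene expression, so neither the Dnmt1 level nor the ESC identity could be checked in these samples.

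H3K9me3 is a histone mark of constitutive heterochromatin and of silenced repeats. In ESCs it is placed at endogenous retroviruses by Setdb1, which Trim28 brings to sites bound by KRAB zinc finger proteins, and at pericentromeric satellites by the Suv39h enzymes. Uhrf1, the partner that guides Dnmt1 to hemimethylated DNA, also binds this mark.

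The loci printed first are those at the top of each line-only class, namely the DKO0-only and the TKOL-only locus with the highest enrichment when the lower of the 2 replicates is taken. Each is printed as its central 300 bases, 5′ to 3′ on the plus strand of mm9, with CpG sites in capitals. The DKO0-only stretch is chr12:92386096-92386395, in an intron of 4930534B04Rik. The TKOL-only stretch is chr11:31571094-31571393, inside Bod1 and within 1 kb of its start.
DKO0-only locus: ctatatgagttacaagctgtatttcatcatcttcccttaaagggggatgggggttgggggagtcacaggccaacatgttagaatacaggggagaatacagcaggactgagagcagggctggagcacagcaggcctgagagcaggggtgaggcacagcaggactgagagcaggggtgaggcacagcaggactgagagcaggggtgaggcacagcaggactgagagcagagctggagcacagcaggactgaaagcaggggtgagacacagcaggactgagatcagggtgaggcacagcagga
TKOL-only locus: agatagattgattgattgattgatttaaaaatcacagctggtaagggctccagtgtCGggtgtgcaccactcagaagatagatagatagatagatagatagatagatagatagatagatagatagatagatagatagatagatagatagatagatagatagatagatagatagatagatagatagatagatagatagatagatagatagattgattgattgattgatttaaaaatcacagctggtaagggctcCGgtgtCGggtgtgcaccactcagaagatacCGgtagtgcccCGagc
Both are tandem repeats. The DKO0-only stretch had 0 CpGs and repeated with a period of 28 bp, with 95% of bases matching in its best 100 bp. The TKOL-only stretch had 5 CpGs and 37 copies of AGAT, with a period of 4 bp. Matches were searched on the printed strand.

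The DKO0 lists held 63575 and 37314 peaks in replicates 1 and 2, and the TKOL lists 55121 and 32702. In both lines replicate 1 had more peaks than replicate 2, by a wider margin than the lines differed within a replicate number. The means were 50444.5 ± 18569 in DKO0 and 43911.5 ± 15853 in TKOL (SD, n = 2), and the difference did not exceed this spread (two-sided exact permutation test, p = 0.667). With 2 lists against 2, the smallest p this test allows is 0.333, so none of the values of single lists could pass 0.05. The order turned in the pooled lists, with 92462 peaks in DKO0 and 104618 in TKOL. It also turned without DKO0 replicate 1 (a difference of -6597.5 peaks) or without TKOL replicate 2 (-4676.5).

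Peaks covered 27.9 and 11.1 Mb of the genome in the DKO0 replicates and 19.05 and 9.32 Mb in the TKOL replicates (exact permutation p = 0.667). DKO0 was 1.47 times TKOL in replicate 1 and 1.19 times in replicate 2, but the higher TKOL replicate lay above the lower DKO0 replicate. With the same number of peaks per list, 32702, the lengths were 20.1 and 10.4 Mb in DKO0 and 14.3 and 9.32 Mb in TKOL. Without DKO0 replicate 1 the difference of the means turned from 5.34 to -3.08 Mb. The pooled lists covered 85.3 Mb in DKO0 and 75.0 Mb in TKOL, or 3.21% and 2.82% of the genome.

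Median peak width was 279 and 214 bp in DKO0 and 227 and 223 bp in TKOL (exact permutation p = 1). The median fold enrichment, which is the authors' ratio of signal to background, was 2.63 and 3.39 in DKO0 and 2.92 and 3.45 in TKOL (exact permutation p = 0.667). Without DKO0 replicate 1 both differences turned, to -11 bp and to 0.199, and without TKOL replicate 2 that of enrichment turned to 0.0865. Replicate 1 of DKO0 had the widest and least enriched peaks, and the other 3 lists lay closer together in width.

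**Figure D1:**
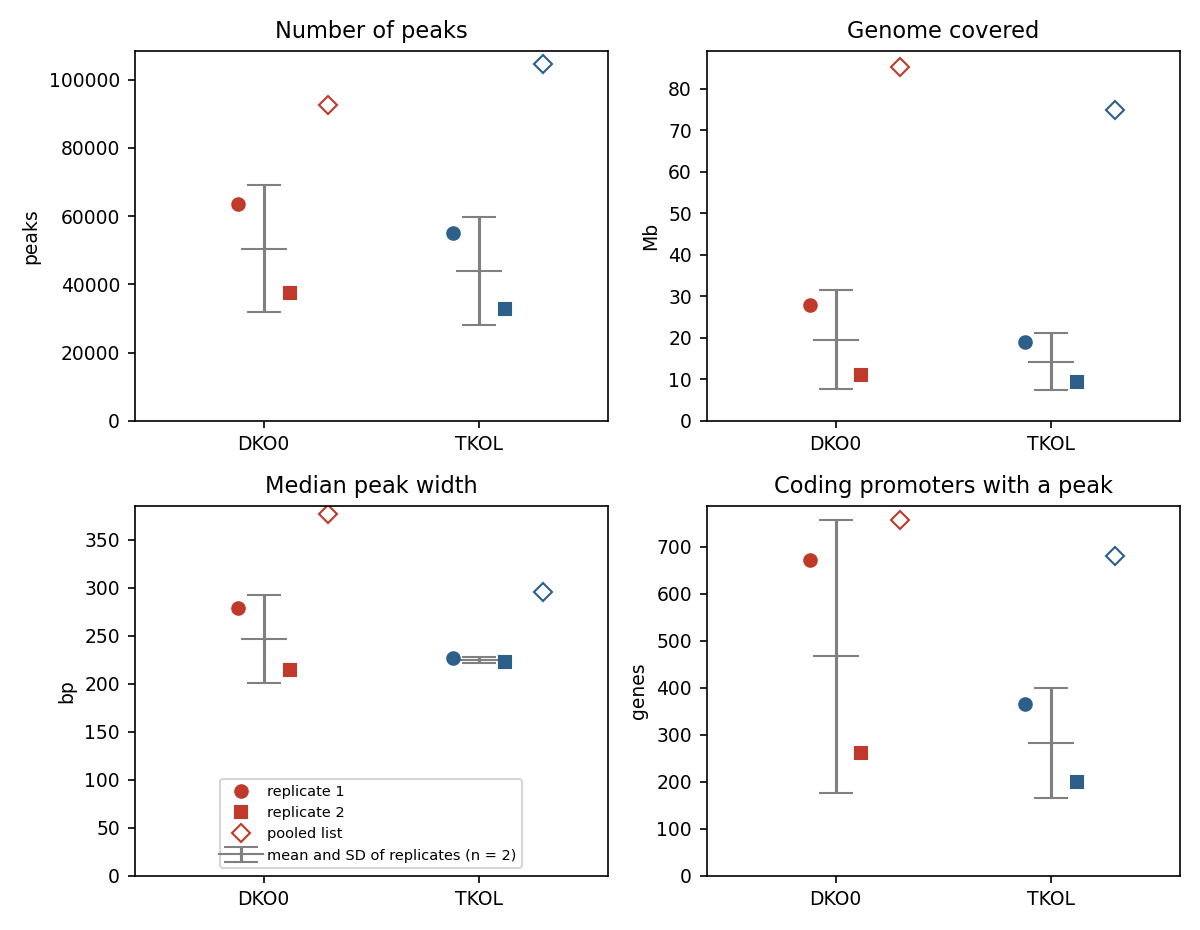
Number of peaks, genome covered (Mb), median peak width (bp) and protein-coding promoters with a peak (genes) in each H3K9me3 list; filled circles and squares are replicates 1 and 2, open diamonds the pooled lists, and grey bars the mean and SD of the 2 replicates. The replicates of DKO0 and TKOL overlap in all panels, and the pooled lists cover 85.3 and 75.0 Mb.

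The pooled lists differed from the replicate lists in kind as well as in size. No replicate list held a peak of 5 kb or more, and the longest replicate peak was 4607 bp, whereas the pooled lists held 2976 such peaks in DKO0 and 2343 in TKOL. These wide peaks made up 25.6% of the covered length in DKO0 and 22.4% in TKOL. The longest pooled peak lay at nearly the same place in both lines, at chr10:82865259-82945740 in DKO0 (80482 bp, enrichment 6.68) and at chr10:82856491-82945898 in TKOL (89408 bp, enrichment 6.08). This intergenic block lies 4297 to 4455 bp from Aldh1l2, a mitochondrial folate enzyme gene. The 4 replicate lists covered between 1.52% and 2.63% of it. Peak names in the pooled lists carry a further library code that the replicate lists lack, a different one for each line, so the pooled lists were compared with each other only as 1 value per line with no test. Per the study's methods, input samples were used when the merged replicates were processed again, and whether the replicate lists were called with input is not given in the sources used here. Enrichments of pooled and replicate lists may therefore rest on different backgrounds and were not compared with each other.

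Replicate lists with the same number shared more of their covered length than replicates of the same line. DKO0 and TKOL shared 37.4% of the length covered by either in replicate 1 and 32.5% in replicate 2. The replicates shared 22.6% within DKO0 and 23.5% within TKOL. Across both line and number, 17.4% was shared between DKO0 replicate 1 and TKOL replicate 2, and 29.7% between DKO0 replicate 2 and TKOL replicate 1. With equal peak numbers the values were 40.6% and 33.5% for the same number and 26.7% and 26.5% for the same line. The cause was not tested. The pooled lists shared 58.3%.

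**Figure D2:**
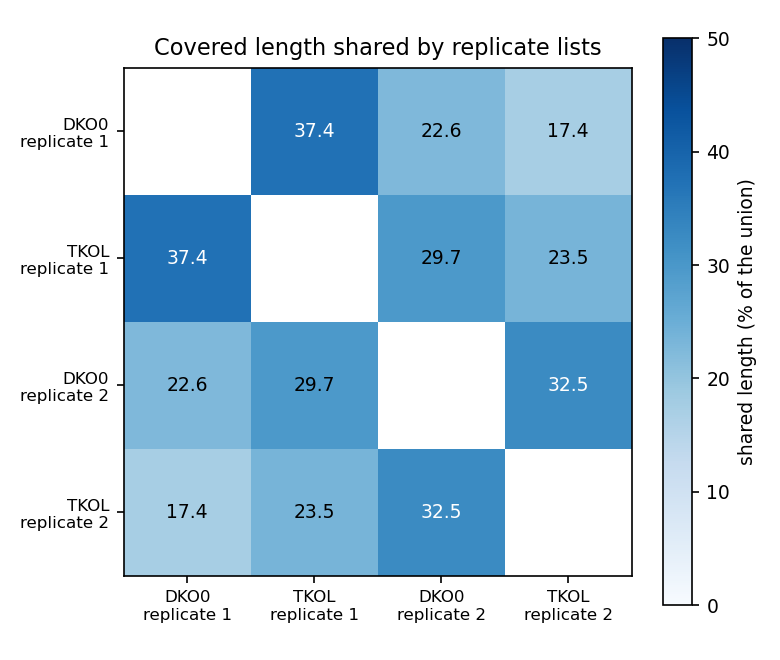
Length shared by each pair of replicate lists, as a percentage of the length covered by either list, with darker blue for more. The highest value is 37.4, between replicate 1 of DKO0 and replicate 1 of TKOL, and the lines' own replicates share 22.6 and 23.5.

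By chromosome, the shares of covered length in the replicates of the lines overlapped on all 21 chromosomes (exact permutation test, smallest adjusted p = 1). In all 4 lists chromosomes 10, 12, 13, 14 and X held more of the covered length than their share of the genome. Chromosome 13, which makes up 4.53% of the genome, held 6.07% and 6.66% in DKO0 and 6.26% and 6.57% in TKOL. Chromosome 6 held 6.74% and 5.13% in DKO0 and 5.89% and 5.04% in TKOL. The X chromosome, 6.28% of the genome, held 6.31% and 7.91% in DKO0 and 7.54% and 7.46% in TKOL. In the pooled lists DKO0 was the denser line on 20 chromosomes, and X was the exception, with 30.7 kb covered per Mb in DKO0 and 31.5 in TKOL. With equal peak numbers, chromosome 1 alone separated the lines, with 6.87% and 6.83% in DKO0 and 6.82% and 6.77% in TKOL.

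**Figure D3:**
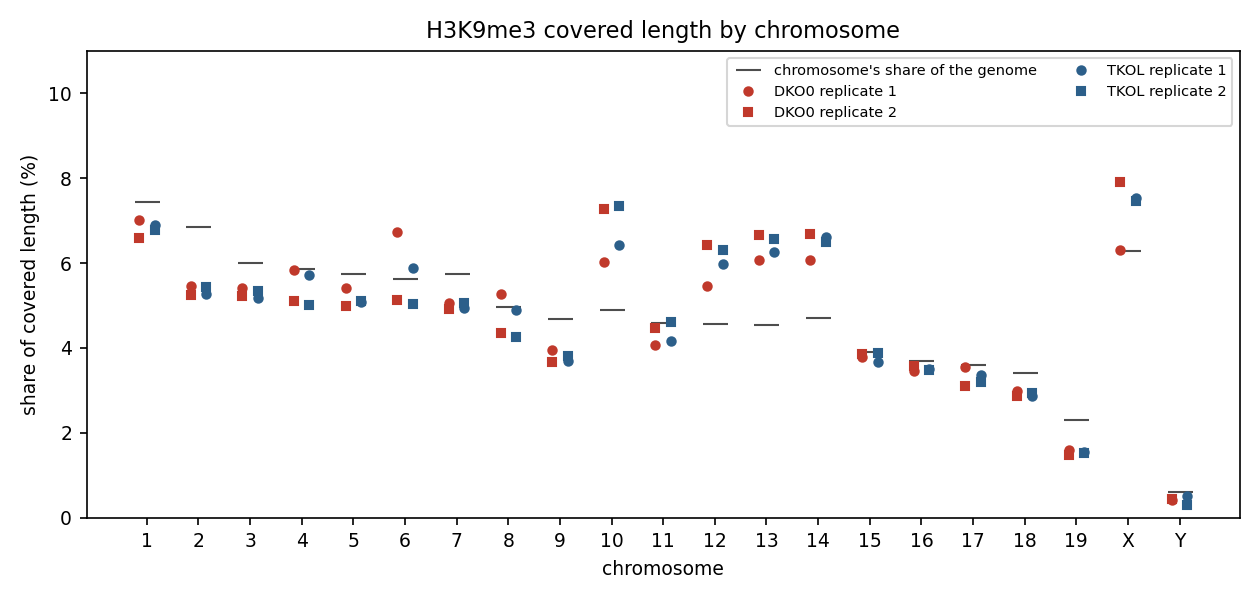
Share of the covered H3K9me3 length (percent) on each chromosome in the 4 replicate lists, with red for DKO0 and blue for TKOL, circles for replicate 1, squares for replicate 2 and grey dashes for the chromosome's share of the genome. Chromosome 13 lies between 6.07 and 6.66 in all lists, above its 4.53, and no chromosome separates the lines.

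Fixed windows of 100 kb were then compared on log2 of the covered length, scaled to the same total per list, with a pseudocount of 0.5 kb. Of 6016 windows with at least 1 kb covered on average, 0 (0%) passed an adjusted p of 0.05 with more H3K9me3 in DKO0 and 0 (0%) with more in TKOL (limma, smallest adjusted p = 1.00). At an unadjusted p under 0.05 there were 39 windows, 33 higher in DKO0 and 6 higher in TKOL. Without any difference a share of 0.05 would lie there by chance, and 39 of 6016 is less. The fit was therefore conservative, and the absence of calls is weak evidence that the lines are alike. Quantile normalization gave 12 windows at this unadjusted p, 6 higher in DKO0 and 6 in TKOL. Equal peak numbers gave 23 higher in DKO0 and 10 in TKOL, and windows of 50 kb gave 22 and 6. The excess in DKO0 thus depended on the setting, and none of these windows passed the adjusted threshold. Without TKOL replicate 1, 2 windows passed with more in DKO0. The median log2 difference over all windows was -0.05. The lowest p belonged to chrX:122300001-122400000, which overlaps Gm17693. Its scaled covered length was 5.78 and 5.37 kb in DKO0 and 8.02 and 0.199 kb in TKOL. The log2 difference was 1.32 with an SE of 0.42, and the adjusted p from limma was 1.00. Only TKOL replicate 2 was low in this window, and the pooled lists covered 25.3 and 23.1 kb of it. Windows higher in TKOL included those at App, the amyloid precursor gene (log2 difference -1.06), Gp2 (-0.80) and 2010111I01Rik (-0.88), none past the threshold.

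Merging peaks that shared a base gave 140821 loci over the 6 lists. A peak was present in both DKO0 replicates at 16904 loci, in both TKOL replicates at 14541 loci and in all 4 replicate lists at 11308 loci. A further 66789 loci had a peak in a pooled list and in no replicate list. There were 442 loci (0.314% of all loci) with a peak in both DKO0 replicates and in no TKOL list, and 341 loci (0.242%) with one in both TKOL replicates and in no DKO0 list. With equal peak numbers the counts were 167 and 208, so the line with more such loci changed. Where peaks had to reach a -log10 q of 5, they were 0 and 1. Without the rule on the other line's pooled list they were 1195 and 769. The counts rested on the requirement of both replicates. With 1 replicate of the line itself left out, they were between 6135 and 12394 in DKO0 and between 6614 and 6790 in TKOL. Leaving out TKOL replicate 1 moved the DKO0 count to 674, and leaving out DKO0 replicate 2 moved the TKOL count to 566.

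The line-only loci were narrower than loci common to all 4 replicate lists, but not narrower than loci in general. Their median width was 372 bp in DKO0 and 308 bp in TKOL, against 2512 bp for loci in all 4 lists and 288 bp for all loci. A locus spans every peak merged into it, and a common locus joins peaks of all 4 replicate lists. The rules that define the classes therefore bear on these widths, and the contrast with common loci is no separate trait of line-only loci. The median enrichment was 2.74 and 3.48 in the replicates at DKO0-only loci and 3.14 and 3.503 at TKOL-only loci. Each value is that of the highest peak at a locus chosen for its peaks in these same lists. These medians were therefore not compared with the median of all peaks. Taking the lower of the 2 replicates, the median enrichment was 2.74 for DKO0-only and 3.13 for TKOL-only loci, and the highest was 3.74 and 5.42. In replicate 2 a single enrichment value recurred at 83 DKO0-only loci (3.29) and at 78 TKOL-only loci (3.16). The line's own pooled list had no peak at 84 of the DKO0-only and 25 of the TKOL-only loci. At loci common to all 4 lists, the medians were 2.91 and 3.72 in DKO0 and 3.16 and 3.81 in TKOL, and the median log2 ratio of DKO0 to TKOL was -0.12 in replicate 1 and -0.05 in replicate 2.

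**Figure D4:**
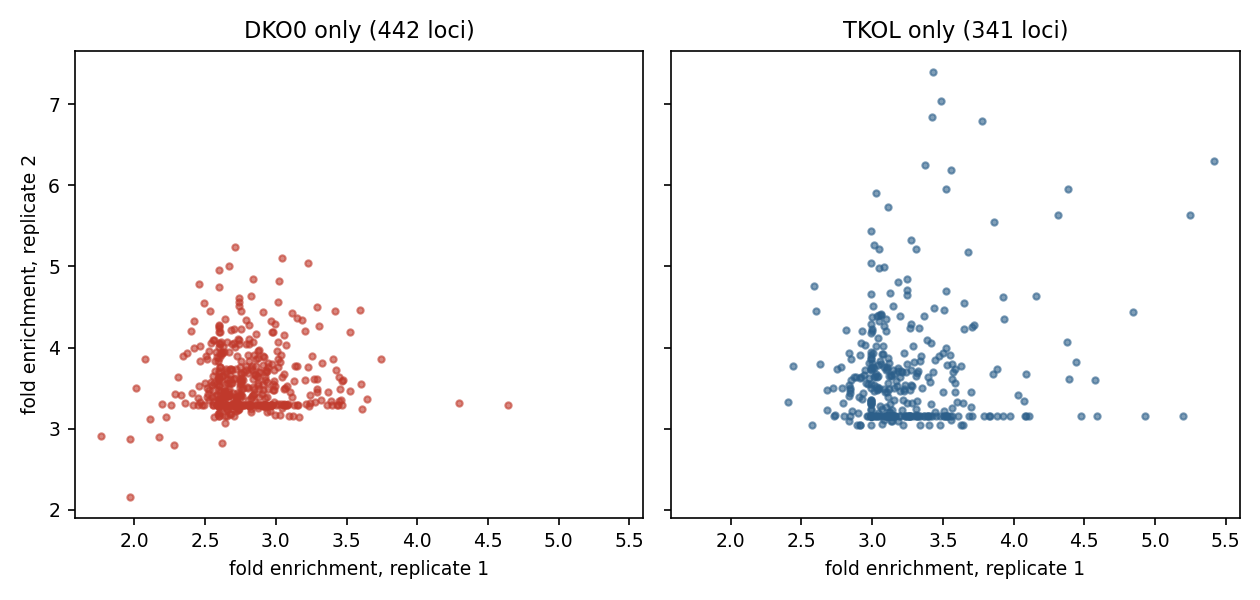
Fold enrichment in replicate 1 (horizontal) and replicate 2 (vertical) of each DKO0-only locus (left, 442 loci) and TKOL-only locus (right, 341 loci). In replicate 2 many points lie on a single line near 3.29 in DKO0 and 3.16 in TKOL, and the highest replicate 1 value, 5.42, is the TKOL-only locus at Bod1.

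Sequence features played no part in the choice of loci and are given as a description. The median CpG density was 7.74 per kb at DKO0-only loci and 7.63 at TKOL-only loci, against 17.4 at the common loci and 8.13 at all loci. In the central 300 bases, a stretch of 100 bp with a period of 2 to 60 bp and at least 80% matching bases, like those printed above, was found at 66 DKO0-only loci (14.9%) and 54 TKOL-only loci (15.8%). The shares were 5.58% at the common loci and 3.62% at all loci. At least 4 telomere units in a row (TTAGGG or its complement) were found at 114 common loci, 2 DKO0-only loci and 0 TKOL-only loci, among 156 of all loci. How reads of such repeats were placed was not tested.

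Most line-only loci lay between genes, namely 66.7% in DKO0 and 76.5% in TKOL, with 29.0% and 21.7% in introns. Loci common to all 4 lists were 76.6% intergenic and 20.6% intronic, and all loci 76.3% and 20.7%. The TKOL-only shares were thus near those of all loci, and DKO0-only loci were less often intergenic. The line-only loci were also compared with lists that were not used to choose them. Per the study, the WT cells were an ESC line other than J1. Uhrf1 was mapped through a FLAG tag in separately made lines, not in the cells used for H3K9me3. H3K9me3 in WT cells was present at 14.0% and 11.8% of DKO0-only loci in its 2 replicates, at 20.2% and 15.2% of TKOL-only loci and at 84.6% and 83.1% of common loci, where all loci gave 13.3% and 12.2%. Trim28 of DKO0 marked 8.14% and 6.33% of DKO0-only loci and 8.21% and 9.38% of TKOL-only loci. Trim28 of TKOL marked 15.0% and 11.7% of TKOL-only loci and 14.9% and 4.98% of DKO0-only loci. Over all loci these lists gave 7.71% and 7.03% for DKO0 and 13.2% and 7.16% for TKOL, and 56.5% to 77.9% of common loci had a Trim28 peak. Uhrf1 of DKO0 was found at 4.98% and 3.39% of DKO0-only loci and at 5.28% and 6.74% of TKOL-only loci. Uhrf1 of TKOL was found at 7.92% and 8.80% of TKOL-only loci and at 3.62% and 4.52% of DKO0-only loci. Over all loci Uhrf1 gave 3.72% and 2.97% in DKO0 and 5.06% and 3.12% in TKOL, and over common loci 17.8% to 30.7%. Common loci were also wider, and the part of width in these shares was not tested.

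Repeat classes were followed at the genomic matches of the forward primers used for hairpin-bisulfite sequencing, which mark copies of each class. These primers are the sequences that define the matches, printed 5′ to 3′ in converted form, in which T stands for C or T. They come from the study's primer sheet.
IAPez primer: gtttttttttgggaatgaatgagt
IAPltr primer: taagagtgtaagaagtaagagagagag
L1MdT primer: tggtagtttttaggtggtatagat
MuERVL primer: taagggttaggtggtagtattgaat
IAPez is the internal part of an active endogenous retrovirus family that Trim28 and Setdb1 silence in ESCs. Of 1140 IAPez matches, 88.2% and 53.6% lay in a peak of DKO0 and 69.8% and 34.6% in a peak of TKOL, and the pooled lists held 98.9% and 98.6%. DKO0 was higher within each replicate number, by 18.3 and 18.9 percentage points, yet the groups overlapped, since TKOL replicate 1 exceeded DKO0 replicate 2. Equal peak numbers left the mean difference at 18.6 points. It was 1.36 points without DKO0 replicate 1 and 1.05 without TKOL replicate 2.

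At the 293 matches of IAPltr, the long terminal repeats of this family, the shares were 25.6% and 9.22% in DKO0 and 19.8% and 8.19% in TKOL. L1MdT, a young LINE-1 family, had 1880 matches, of which 59.6% and 31.8% lay in a DKO0 peak and 40.4% and 30.6% in a TKOL peak. In the pooled lists IAPltr reached 94.9% and 95.9%, and L1MdT 94.1% and 94.3%. Without DKO0 replicate 1, the mean difference turned to -4.78 points at IAPltr and -3.72 at L1MdT. Without TKOL replicate 2 it turned to -2.39 at IAPltr. At IAPez, 0 matches had a peak in both replicates of one line and in no list of the other.

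MuERVL, the endogenous retrovirus transcribed in two-cell embryos, stood apart from these classes. Of its 708 matches, 1.41% and 2.82% lay in a DKO0 peak and 1.98% and 3.53% in a TKOL peak. The pooled lists differed more, with 12.7% in DKO0 and 27.4% in TKOL. Of the matches, 38 were in both pooled lists, 52 in that of DKO0 only and 156 in that of TKOL only. The median enrichment at the matches in a peak was 2.49 in the DKO0 pooled list and 2.92 in that of TKOL, against 10.8 and 12.4 at IAPez. In the replicate lists the order of the classes was the other way, with 2.69 and 3.44 in DKO0 and 3.10 and 3.66 in TKOL at MuERVL, and 2.32 and 3.00 in DKO0 and 2.40 and 3.30 in TKOL at IAPez. The difference between the lines at MuERVL rests on 1 pooled list per line and has no replicate check. B1, a short interspersed element, was in a peak at 0.852% and 0.511% of 587 matches in the pooled lists. The major satellite primer had 0 matches in the assembly, and that class was not analysed here.

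**Figure D5:**
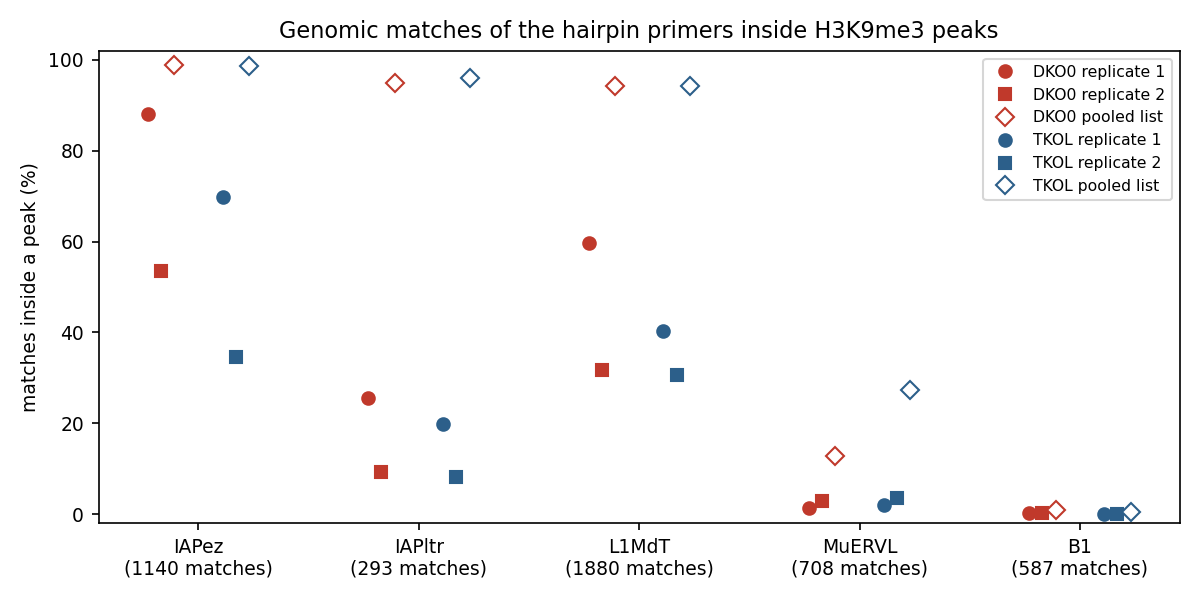
Share of the genomic matches of each hairpin primer that lie inside an H3K9me3 peak (percent), with red for DKO0, blue for TKOL, filled circles and squares for replicates 1 and 2 and open diamonds for the pooled lists. IAPez, IAPltr and L1MdT reach 94.1 or more in the pooled lists, and MuERVL is at 12.7 in DKO0 and 27.4 in TKOL.

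Genes and promoters held less of the covered length than their share of the genome. Protein-coding genes took up 23.6% and 23.5% of the covered length in DKO0 and 22.8% and 23.7% in TKOL (exact permutation p = 1), against 37.5% of the genome. The difference turned to -0.179 percentage points without TKOL replicate 1. Promoters, taken as 1 kb on each side of a protein-coding start, took up 0.772% and 0.550% in DKO0 and 0.585% and 0.526% in TKOL (exact permutation p = 0.667), against 1.59% of the genome. The promoter difference turned to -0.35 percentage points among peaks with a -log10 q of at least 5, and to -0.0062 without DKO0 replicate 1.

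Of 22367 protein-coding genes, 673 and 262 had a promoter peak in DKO0 and 366 and 200 in TKOL (exact permutation p = 0.667). With equal peak numbers these were 321 and 196 in DKO0 and 203 and 200 in TKOL, so DKO0 replicate 1 alone stood higher. Without that library the difference turned from 184.5 to -21 genes. A promoter peak in all 4 lists was found at 65 genes. Among these were Tas2r134, a bitter taste receptor (enrichment 12.4 and 15.9 in DKO0, 14.5 and 14.8 in TKOL), and Oasl1, an interferon-induced gene (10.9 and 13.7 in DKO0, 14.3 and 12.4 in TKOL). In the pooled lists Oasl1 had no promoter peak in DKO0 and 1.45 in TKOL, and Tas2r134 had 3.67 in DKO0 and 4.38 in TKOL. Both genes were chosen after their values were seen.

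At promoters, 17 genes (0.076% of protein-coding genes) had a peak in both DKO0 replicates and in no TKOL list, and 5 genes (0.0224%) had one in both TKOL replicates and in no DKO0 list. The 17 genes shared 12 peaks, since several start next to each other, as do Kdm2b, a histone demethylase, and Orai1, a calcium channel (enrichment 3.01 and 3.76 in DKO0). Histone genes Hist2h2bb and Hist2h3b shared a peak of 2.94 and 3.58. The lower replicate ranged from 2.41 to 3.28 over the 17 genes, and 9 of them had no peak in the DKO0 pooled list. Olfr1156, an olfactory receptor, was the 1 member of the gene lists among them (2.63 and 3.29). The 5 TKOL-only promoters were those of Bod1, Gm8226, Gm14374, Defa-rs7 and Gm7861, and each also had a peak in the TKOL pooled list. Apart from Olfr1156 and Bod1, these genes were chosen after their values were seen.

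Within the gene body alone, 97 genes (0.434% of protein-coding genes) had a peak in both DKO0 replicates and in no TKOL list, and 30 genes (0.134%) the reverse. Among DKO0-only loci at or near protein-coding genes, that in 4930534B04Rik had the highest enrichment by the lower replicate (3.74 and 3.86). Introns of Trim30a, an innate immunity gene, had 3.52 and 4.19, and those of the agouti coat colour gene 3.43 and 3.72. Gm5444 had 3.64 and 3.37. A locus of 1398 bp lay in an exon of Hic1, a transcriptional repressor, close to Smg6, a nonsense-mediated decay factor, at chr11:74978833-74980230. Its enrichment was 3.46 and 3.35, and 2.75 in the pooled list. Gm3002 and Gm3020 shared a locus of 3.45 and 3.34. Introns of Zfp101, a zinc finger gene, had 3.33 and 3.81, and those of A1cf, an RNA editing cofactor, 3.29 and 3.62. The loci at Trim30a, agouti, Gm5444 and Zfp101 had no peak in the DKO0 pooled list.

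In TKOL the line-only locus with the highest lower enrichment was that at Bod1, a gene needed for chromosome biorientation in mitosis, with 5.42 and 6.30 in the replicates and 3.84 in the pooled list. Among the loci at or near protein-coding genes, an intron of Chn1, a Rac GTPase-activating protein, came next with 4.84 and 4.43. Armc3 had 3.49 and 7.04, Dzip1, a cilium gene, 3.68 and 5.18, and 2610034B18Rik 3.86 and 5.55. Dpyd, which degrades pyrimidines, had 3.56 and 3.80, Adam9, a metalloprotease, 3.85 and 3.68, Ism1 3.88 and 3.74, and Lypd4 3.72 and 4.27. The loci named here were 241 to 756 bp wide. No DKO0-only locus reached a lower enrichment of 4, and 7 TKOL-only loci did.

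Among the gene lists, germline genes had the widest gap in the share of promoters with a peak in replicate 1. Of 30 measured germline genes, 8 (26.7%) had a promoter peak in DKO0 replicate 1 and 3 (10%) in TKOL replicate 1, with 0 in replicate 2 of either line, and the pooled lists gave 8 and 3. Over all protein-coding genes, 3.01% of promoters had a peak in DKO0 replicate 1 and 1.64% in TKOL replicate 1, so DKO0 replicate 1 was the higher of these lists beyond germline genes too. Ddx4, an RNA helicase of germ cells, had an enrichment of 2.91 in DKO0 replicate 1 and 2.50 in the DKO0 pooled list and no promoter peak in TKOL. Mael and Mov10l1, both of the piRNA pathway, had 2.88 and 2.82 in DKO0 replicate 1 and no promoter peak in TKOL. Sycp1, of the synaptonemal complex, had a peak in replicate 1 of both lines (2.84 and 2.82). Brdt also did, and was higher in TKOL (2.96) than in DKO0 (2.53). Bodies of the 30 germline genes held a peak at 10 and 4 genes in DKO0 and at 9 and 9 in TKOL, so replicate 2 went the other way. With equal peak numbers, 3 germline promoters had a peak in DKO0 replicate 1 and 0 in each other list. Without DKO0 replicate 1 no germline promoter had a peak in a DKO0 replicate, and these genes were chosen after their values were seen.

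Over all protein-coding genes, 3.01% and 1.17% of promoters had a peak in DKO0 and 1.64% and 0.894% in TKOL. Of 365 Zfp genes, 19 and 4 (5.21% and 1.10%) had one in DKO0 and 12 and 4 (3.29% and 1.10%) in TKOL, and 2 had one in all 4 lists. Of 117 Vmn2r genes, a family of pheromone receptors, 46 and 19 (39.3% and 16.2%) held a peak in the body in DKO0. In TKOL 37 and 23 (31.6% and 19.7%) did. Over all protein-coding genes, 21.7% and 14.9% of bodies in DKO0 and 17.7% and 14.0% in TKOL held one. The Vmn2r share in DKO0 replicate 2 was thus near that of all genes. Promoter peaks were found at 2 and 0 of 33 genes of the H3K9 and DNA methylation machinery in DKO0 and at 2 and 1 in TKOL. Setdb1 had a promoter enrichment of 3.29 in DKO0 replicate 1 and no promoter peak in TKOL. Zfp809, a KRAB zinc finger gene, had 2.57 at its promoter in TKOL replicate 1 and no promoter peak in DKO0. The body of Zfp809 held 1299 bp of peaks in DKO0 replicate 1 and 304 bp in TKOL replicate 1. In the pooled lists it held 7184 bp in DKO0 and 8803 bp in TKOL. Atf7ip, a partner of Setdb1, had 2.06 in DKO0 replicate 1 and 2.40 and 3.78 in TKOL. The order turned in the pooled lists, where Atf7ip had 4.84 in DKO0 and 3.69 in TKOL. These 3 genes were chosen after their values were seen. Of 16 two-cell stage genes, 1 and 1 had a promoter peak in DKO0 and 0 and 0 in TKOL, and of 23 imprinted genes, 1 and 0 in DKO0 and 0 and 0 in TKOL. Vmn1r genes had 2 in each replicate list, of 203, and olfactory receptors 6 and 6 in DKO0 and 4 and 8 in TKOL, of 1087. Of 22 pluripotency genes, 1 promoter had a peak in DKO0 replicate 1 and 0 in the other lists. No clustered protocadherin promoter had a peak, and of 40 Hox promoters 2 had one, in TKOL replicate 2. None of the 14 fibroblast genes, listed because feeder cells are fibroblasts, had a promoter peak in any of the 6 lists.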

How the data were processed

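H3K9me3 ChIP-seq was analysed in 4 samples of DKO0 and TKOL ESCs. Per the labels and the study's methods, reads were aligned to mm9 with BWA, duplicates were removed with GATK, and broad peaks were called with MACS2 for each replicate and for the replicates merged on read level. The values the authors deposited for a peak are its fold enrichment, a ratio of signal to background, and significance on a -log10 scale, once as a p-value and once as a q-value. The study names a target depth, but the lists carry no read counts, so the depth reached is unknown and no interval for it is given. Peaks on the mitochondrial genome (at most 5 per list) were left out.

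Covered length, width, enrichment and location were computed per list with Python 3.11.15 and numpy 2.4.6, and the covered lengths of the 6 lists were checked with bedtools 2.31.1 (0 differed). Genes came from the GENCODE annotation of mm9. Values of the 4 replicate lists were compared by two-sided exact permutation tests, and windows with limma 3.58.1 in R 4.3.3 with a trended prior and Benjamini-Hochberg adjustment. The window fit was also run on simulated data with independent noise in each list. In the real lists same-numbered replicates deviated together, so the simulation does not bear on the calls made here. Overlaps needed 1 shared base. Peaks of equal number were the highest by -log10 p. Repeat copies were exact matches to the hairpin primers on either strand, with C read as T.

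Named genes were the 10 protein-coding genes per line at line-only loci with the highest lower enrichment, those of the 5 windows per line with the lowest p, members of the gene lists with a line-only promoter peak, and the longest pooled peak. Some items that these rules choose are not reported here. The lists, members and rules were chosen with earlier results of these data known. The alternatives were equal peak numbers, a -log10 q of at least 5, pooled lists, each replicate left out, a replicate block, promoters of 2 kb on each side, all annotated genes, peaks within 1 kb merged, and other scalings, filters, pseudocounts and sizes of windows. Equal peak numbers for chromosomes and gene lists, and all alternatives for repeat copies, were chosen after the data were seen.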

Additional observations from a re-analysis of the deposited data

How the results depend on the processing

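Neither line was called higher in any test of a single value, so a turned sign is not a reversed finding. The difference of DKO0 minus TKOL turned in the pooled lists for peak number (-12156) and genic share (-0.400 percentage points), and for promoter share with a -log10 q of at least 5 (-0.348). In the pooled lists it moved to 81 bp for median width and to 3.26 points for the share of length in peaks of 5 kb or more. Leaving out 1 replicate at a time gave -6597.5 to 19663.5 peaks, -3.08 to 13.8 Mb, -11 to 54 bp, -0.556 to 0.199 in enrichment, -0.00619 to 0.216 points of promoter share, -0.179 to 0.769 points of genic share and -21 to 390 promoters. The signs turned without DKO0 replicate 1 for peak number, length, width, enrichment, promoter share and promoters, without TKOL replicate 2 for peak number and enrichment (0.0865), and without TKOL replicate 1 for genic share.

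Loci in DKO0 only numbered 442, and 167 with equal peak numbers, 1195 with the other line's pooled list ignored, 0 with a -log10 q of at least 5 and 539 to 12394 with 1 replicate left out. Loci in TKOL only numbered 341, and 208, 769, 1 and 448 to 6790 in the same settings. Merging within 1 kb gave 386 and 282. Chromosomes that separated the lines went from 0 to 1 with equal peak numbers. The count of windows higher in DKO0 was 0 to 2 with 1 replicate left out, with the 2 calls made without TKOL replicate 1, and 0 with the other scaling, filter, pseudocount, size and peak number settings. Windows higher in TKOL numbered 0 in all settings run.

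The labels give both lines the replicate numbers 1 and 2 but no shared culture or day. Deviations of same-numbered lists from their line means correlated over 6016 windows (r = 0.656). With the replicate block in limma, 1 window was called higher in DKO0, the X window at Gm17693 (adjusted p = 0.000228), and 0 higher in TKOL. The pairs went opposite ways in this window, with 5.78 kb in DKO0 and 8.02 kb in TKOL in replicate 1 and 5.37 and 0.199 kb in replicate 2. The smallest p of 2 pairs is 0.5 in an exact sign-flip test, and the block changed no other call. At an unadjusted limma p under 0.05 the block gave 296 windows, 167 higher in DKO0 and 129 in TKOL, against 39 without it. In single values the block left peak number at a difference of 6533 (exact p = 0.5).

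At repeat copies, alternatives added after the data were seen moved MuERVL to -14.7 points in the pooled lists from -0.64, while B1 stayed between 0.17 and 0.34. Unknown depth, 2 lists per line and lists of unequal length limit all comparisons.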
